A study of Mus musculus with 9 samples.

Results

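The 8 keratin genes described here, Krt7, Krt8, Krt18, Krt19, Krt20, Krt5, Krt14 and Krt80, are 8 of the 49 keratin genes and of the 19505 genes with a symbol on the arrays. They were chosen by gene symbol. For genes with several array features the brightest on average was to be taken, but each of the 8 had a single feature, so no measured value decided a choice. The set was proposed with the fall of Krt18 in lung against subcutaneous cells already known from these arrays, so the tests of that gene describe it and are not independent support.

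The cells were GFP-labelled 3LL, the mouse Lewis lung carcinoma (LLC) line, with the strain given as C57/BL6 and the tissue as lung for every sample. There were 3 groups of 3 arrays. The dish group grew in monolayer culture for 7 days, and the subcutaneous group came from transplants under the skin. The lung group came from transplants into the lung, in animals whose lungs the series text marks with an abbreviation, BLM, that it does not spell out. In both transplanted groups the GFP-positive cells were collected at day 7. All 3 groups carry the GFP label, and no group of normal lung or skin cells was measured. The labels do not say whether the 3 arrays of a group stand for different animals or culture dishes. The p-values therefore reflect variation among arrays that could be technical.

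Keratins are the intermediate filament proteins of epithelial cells. Each filament is built from pairs of a type II and a type I keratin, and a keratin without a partner is normally degraded. Krt8 (type II) and Krt18 (type I) form the filaments of simple epithelia, among them the lining of the airways and alveoli. Krt7 and Krt19 accompany them in ducts and glands, Krt20 marks gut and bladder lining, and Krt5 with Krt14 fills the basal cells of stratified epithelia and of the airway. Krt80 is a type II keratin found near desmosomes.

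Of these 8 genes, the simple epithelial pair Krt8 and Krt18 was the pair measured above background. Both rose in subcutaneous cells against the dish, Krt18 by 5.31 and Krt8 by 1.63 on the log2 scale. Lung cells lay between the other groups for both genes, with Krt18 2.98 below its subcutaneous mean and 2.33 above its dish mean. The 6 remaining members did not exceed background on any array. Values throughout are log2 signals, and a gene counted as above background on an array when it exceeded the 90th percentile of the 5222 negative control features of that array, which lay between 7.20 and 7.73. Levels of different genes are not compared, since each is read by its own probes. The summed levels of marker genes given below add signals of different probes, so the brightest genes lead each sum. They are read only between groups and do not measure the amount of a cell type.

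The sequences before the start sites of Krt8 and Krt18 are shown because these neighbours on chromosome 15 had group means in the same order. The estimated sizes of their changes differed, but the exact permutation test of that, given below, could not reach a p under 0.1 with 3 arrays against 3. Each run is the 250 bases before the start in the RefSeq promoter table, build GRCm38.p6, Krt8 at chr15:102004343-102004592 on the minus strand and Krt18 at chr15:102027966-102028215 on the plus strand. Capitals mark the E-box letters CANNTG and the letters GCGTG, a hypoxia element core.
Krt8: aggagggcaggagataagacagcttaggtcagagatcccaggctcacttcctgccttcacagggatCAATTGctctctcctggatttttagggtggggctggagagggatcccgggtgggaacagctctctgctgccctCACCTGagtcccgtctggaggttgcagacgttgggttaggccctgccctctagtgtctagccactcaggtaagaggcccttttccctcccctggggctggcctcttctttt
Krt18: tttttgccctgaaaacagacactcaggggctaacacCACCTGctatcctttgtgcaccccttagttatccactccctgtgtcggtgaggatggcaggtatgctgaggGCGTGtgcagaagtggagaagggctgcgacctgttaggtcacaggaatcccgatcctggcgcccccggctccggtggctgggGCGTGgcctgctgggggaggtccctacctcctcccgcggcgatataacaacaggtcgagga
A window of 300 bases, these 250 and the next 50, was searched on both strands. CANNTG was found at -184 to -179, -111 to -106 and 41 to 46 of Krt8 and at -214 to -209 of Krt18, and 72.3% of the 32851 promoters in the table hold it. GCGTG was found at -143 to -139 and -61 to -57 of Krt18 and nowhere in the Krt8 window, and 32.4% of the promoters hold it. TATAAA was found in overlapping matches on both strands across the Krt8 start, from -3 to 5, and not in the Krt18 window, with 13.6% of promoters holding it. GGGCGG (35.7% of promoters), TGANTCA (7.8%) and ACGTG (19.6%) were found in neither. These are matches of letters and not sites shown to be bound, and their part in the keratin values was not tested. Of the 8 genes, 6 were in the table.

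Krt18, the type I partner, had log2 signals of 5.98, 5.91 and 5.27 in the dish, 10.99, 11.03 and 11.06 in subcutaneous cells, and 8.24, 7.23 and 8.66 in lung cells. The 3 groups did not overlap. All 3 dish arrays were below background, all 3 subcutaneous arrays were above it, and 2 of the 3 lung arrays were above it, lung replicate 2 lying just under its limit. The subcutaneous mean of 11.03 ± 0.03 (SD, n = 3) exceeded the dish mean of 5.72 ± 0.39 by 5.31 (SE 0.34, 95% interval 4.58 to 6.04, limma adjusted p = 1.78e-06). Because the dish signal was below background, a bound is more apt than a fold. Subcutaneous Krt18 was at least 12.1-fold higher, taking for each dish array the lowest signal that counts as above background. The lung mean was 8.04 ± 0.74 (n = 3). It exceeded the dish mean by 2.33 (SE 0.34, interval 1.59 to 3.06, limma adjusted p = 0.00178), at least 1.54-fold by the same bound. Lung Krt18 lay 7.90-fold below subcutaneous Krt18 (log2 difference -2.98, SE 0.34, interval -3.71 to -2.25, limma adjusted p = 0.000236), rank 34 among falls.

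Krt8, the type II partner, was above background on all 9 arrays. Its log2 signals were 12.37, 11.98 and 11.68 in the dish, 13.77, 13.87 and 13.29 in subcutaneous cells, and 13.10, 12.48 and 13.27 in lung cells. The groups did not overlap, with the highest lung array just below the lowest subcutaneous one. Subcutaneous Krt8 (mean 13.64 ± 0.31, n = 3) rose 3.10-fold over the dish (12.01 ± 0.34), a log2 difference of 1.63 (SE 0.29, interval 1.01 to 2.25, limma adjusted p = 0.00209). The lung mean of 12.95 ± 0.42 (n = 3) was 0.94 above the dish (interval 0.32 to 1.56, limma adjusted p = 0.0698) and 0.69 below the subcutaneous mean (log2 difference -0.69, interval -1.31 to -0.07, limma adjusted p = 0.128). Neither passed the threshold of an adjusted p under 0.05, although both unadjusted intervals leave out zero. The lung difference from the dish passed in 3 of the 17 alternative analyses, with adjusted p = 0.0339 when dim genes were removed, 0.0363 with an intensity trend and 0.0192 with array weights in limma.

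**Figure D1:**
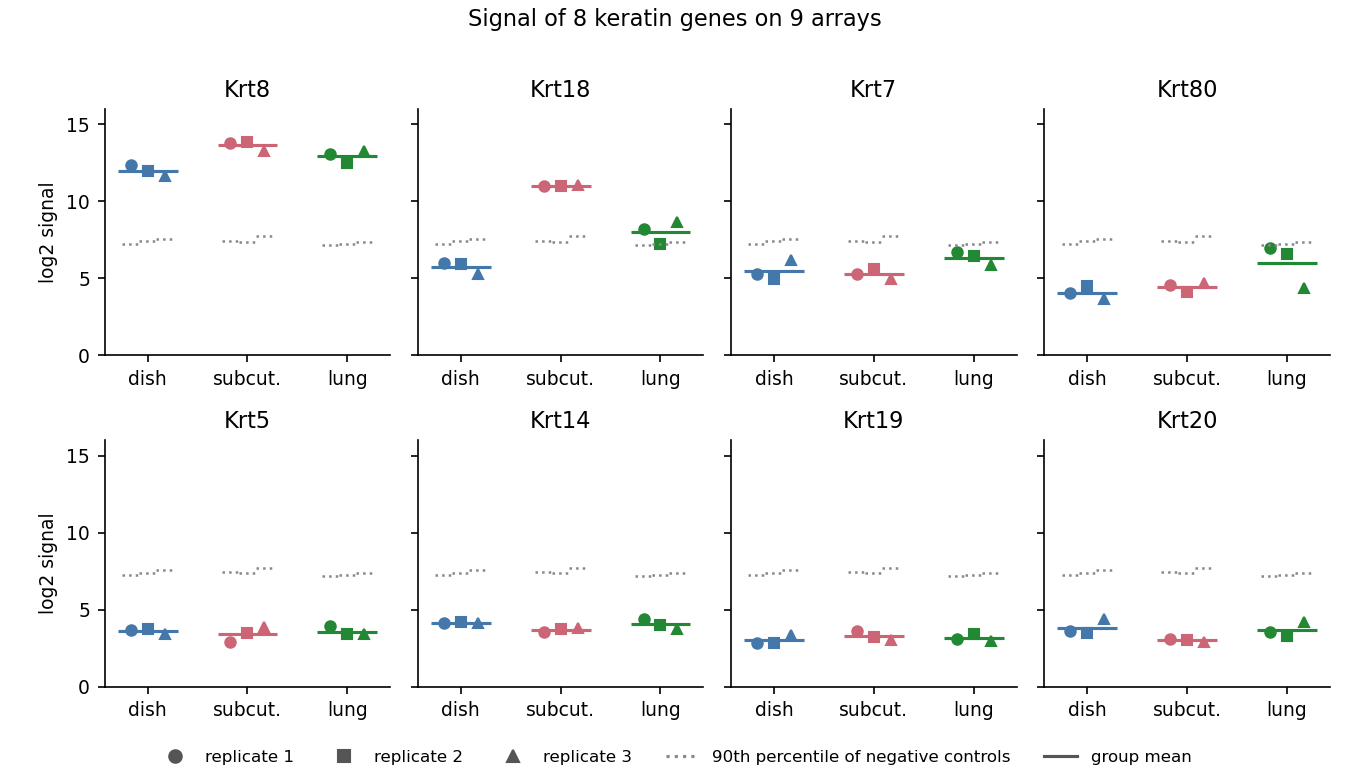
Log2 signal of the 8 keratin genes (vertical axis) on each of the 9 arrays, by group; markers are single arrays, solid lines group means (n = 3) and dotted lines the 90th percentile of the negative controls of each array. Krt8 lies above the dotted lines everywhere, Krt18 lies above them on all subcutaneous arrays and on 2 lung arrays, and the other 6 genes stay below them.

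Whether the partners changed by equal amounts was read from the per-array log2 difference of Krt8 minus Krt18, in which only changes between groups carry meaning. It averaged 6.29 ± 0.19 in the dish, 2.62 ± 0.34 in subcutaneous cells and 4.91 ± 0.32 in lung cells (n = 3 each). The groups did not overlap. The difference fell by 3.67 from dish to subcutaneous cells and by 1.38 from dish to lung, and was 2.29 higher in lung than in subcutaneous cells. Each of these had p = 0.1 in the exact two-sided permutation test, the smallest p that 3 arrays against 3 can give, and an adjusted p of 0.18 over the 9 such comparisons of 3 pairs. Dish Krt18 was below background on all 3 arrays, so the differences that involve the dish rest on a signal below background. Lung Krt18 read 8.24, 7.23 and 8.66 beside background limits of 7.20, 7.23 and 7.36, replicate 2 lying just under its limit. The lung and subcutaneous difference therefore rests in part on a signal near background. Over the 9 arrays, which fall into 3 groups, Krt8 and Krt18 had a Pearson r of 0.947, given as a description.

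Krt7, the type II keratin of glandular and ductal epithelium, read 5.32, 4.95 and 6.19 in the dish, 5.32, 5.61 and 4.99 in subcutaneous cells, and 6.70, 6.45 and 5.88 in lung cells. The lung arrays were higher than all subcutaneous arrays but overlapped the dish. The lung mean exceeded the subcutaneous mean by 1.04 (SE 0.33, interval 0.31 to 1.76, limma adjusted p = 0.0543) and the dish mean by 0.86 (adjusted p = 0.151), both with every array below background. The lung and subcutaneous difference passed without dish replicate 3 (limma adjusted p = 0.0324), without lung replicate 3 (0.0316), with array weights (0.0217) and when only those groups were fitted (0.0464). The lung and dish difference passed with array weights (0.022).

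Krt80 read 4.05, 4.52 and 3.65 in the dish, 4.59, 4.12 and 4.68 in subcutaneous cells, and 6.99, 6.56 and 4.37 in lung cells. Lung replicates 1 and 2 were high and lung replicate 3 lay within the range of the other groups, so the groups overlapped. The lung mean of 5.97 ± 1.40 exceeded the dish mean of 4.07 ± 0.44 by 1.90 (SE 0.52, interval 0.78 to 3.03, limma adjusted p = 0.0455). No array was above background for this gene, and the call was lost without any 1 array other than lung replicate 3, with adjusted p from 0.0548 to 0.182. The excess over the subcutaneous mean was 1.51 (adjusted p = 0.0699). Without lung replicate 3 it was 2.31 with limma adjusted p = 0.000726.

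The remaining members read at background throughout. Krt20 lay between 2.88 and 4.39. Its subcutaneous arrays were lower than all dish and lung arrays, with a log2 difference from the dish of -0.84 (limma adjusted p = 0.0886) and a lung difference from subcutaneous cells of 0.67 (adjusted p = 0.157). Krt5 lay between 2.87 and 3.92, Krt14 between 3.54 and 4.38 and Krt19 between 2.82 and 3.59. Their 9 group differences ranged from -0.45 to 0.36 and none passed. The per-array difference of Krt7 minus Krt19 was 1.16 higher in lung than in subcutaneous cells (exact two-sided permutation p = 0.1, adjusted 0.18), 0.70 higher in lung than in the dish (p = 0.1, adjusted 0.18) and 0.46 lower in subcutaneous cells than in the dish (log2 difference -0.46, p = 0.2, adjusted 0.3). For Krt5 minus Krt14 the 3 differences lay between -0.19 and 0.24, with exact permutation p from 0.4 to 0.7. Both of these pairs rest on signals at background, where a missed threshold says little about the RNA.

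By count, 2 of the 8 keratins rose in subcutaneous cells against the dish (Krt8, Krt18) and none fell, where 12.9% of all genes were called, 6.41% rising and 6.47% falling. In lung cells against the dish 2 rose (Krt18, Krt80) and none fell, where 6.78% of all genes were called, 4.81% rising and 1.97% falling. With quantile normalization 54.8% of the calls over all genes in that comparison were rises, as against 71.0% in the deposited scaling. In lung against subcutaneous cells 1 fell (Krt18) and none rose, where 15.0% of all genes were called, 9.21% rising and 5.79% falling. The median log2 difference of the 8 genes was 0.05, 0.51 and 0.26 in these comparisons, beside -0.01, -0.07 and -0.07 over all genes. The first 2 comparisons share the dish arrays, and each pair of comparisons shares a group.

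**Figure D2:**
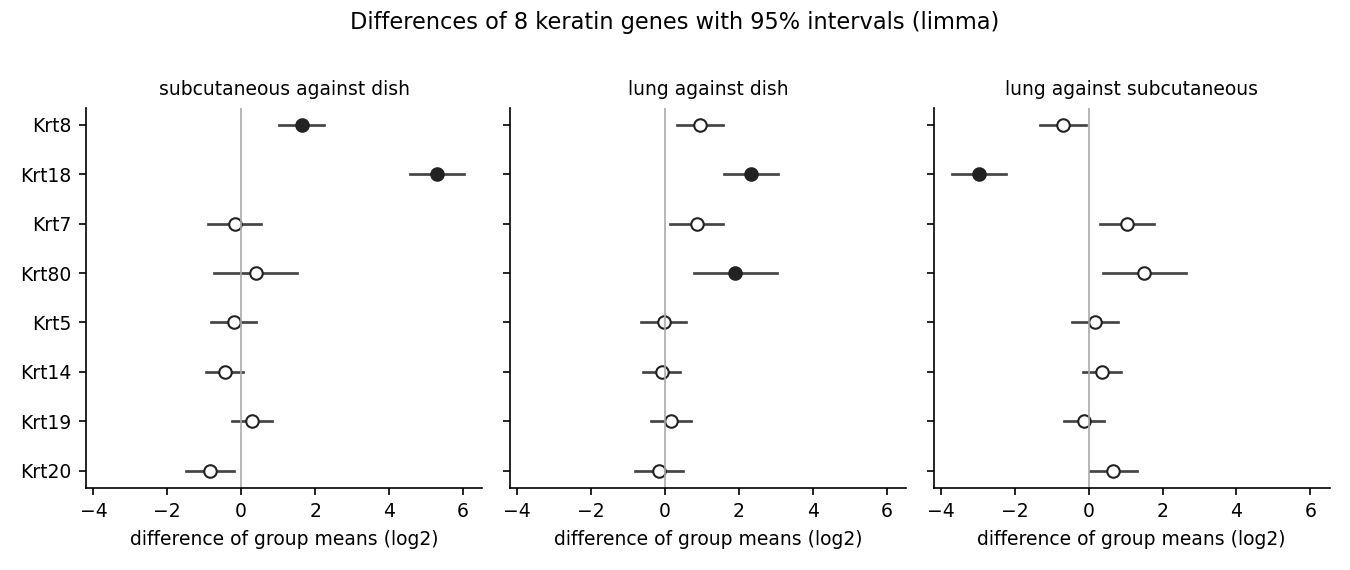
Difference of group means on the log2 scale (horizontal axis) for the 8 keratin genes in the 3 comparisons, with 95% intervals from the limma fit to 9 arrays; filled points had an adjusted p under 0.05. Krt18 is filled in all 3 panels, Krt8 in subcutaneous against dish and Krt80 in lung against dish.

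The rest of the keratin family read at background. The other 41 keratin genes, 23 of type I, 17 of type II and 1 unclassified, read between 2.42 and 7.25, and none exceeded background on any array. Of all 49 keratins, 4.08% were above background on at least 1 array, beside 38.2% of all genes. None of the 41 was called by limma in any comparison. At an unadjusted p under 0.05 there were 4 in lung against subcutaneous, 4 in lung against dish and 1 in subcutaneous against dish. Limma with array weights called 1, 3 and 0 of them.

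**Figure D3:**
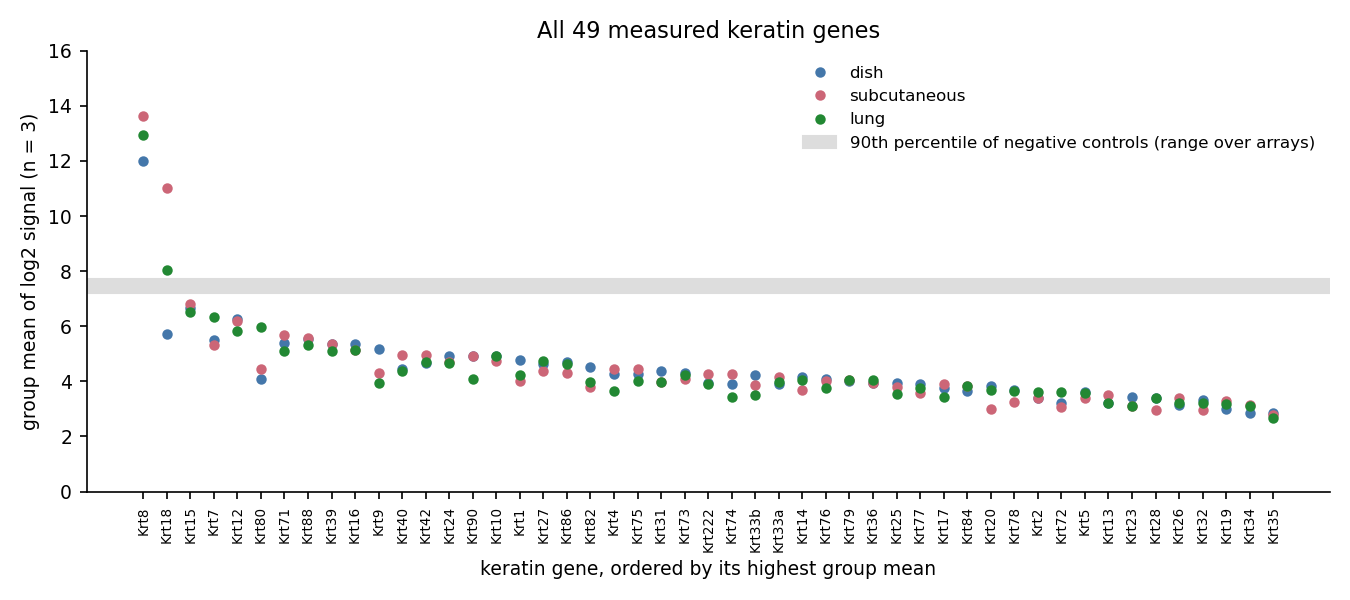
Group means (n = 3) of log2 signal for all 49 measured keratin genes, ordered along the horizontal axis by their highest group mean; the grey band is the range over arrays of the 90th percentile of the negative controls. Krt8 and Krt18 alone have a group mean above the band.

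Desmosomes and hemidesmosomes anchor keratin filaments to the membrane. Of 19 genes of these junctions and their linker proteins, 18 were measured and 4 exceeded background on some array. In subcutaneous cells against the dish 2 rose and none fell, in lung against dish 2 rose and none fell, and in lung against subcutaneous 1 rose and 3 fell. Over all genes 12.9%, 6.78% and 15.0% were called in these comparisons. The counts of this list and of those below are to be read beside these shares. The list medians were 0.16, -0.11 and -0.20. Itga6, the integrin chain of hemidesmosomes that also pairs with other integrin chains, read 12.42 to 12.85 in the dish, 15.15 to 15.33 in subcutaneous cells and 13.72 to 14.29 in lung cells. Its groups did not overlap and took the same order as those of Krt8 and Krt18. The subcutaneous rise was 2.64 (limma adjusted p = 2.27e-05), the lung rise over the dish 1.46 (adjusted p = 0.0038) and the lung difference from subcutaneous cells -1.18 (adjusted p = 0.00598). Dst, a cytoskeletal linker of the plakin family, was above background in lung cells alone. It read 8.25, 8.62 and 8.66 there, at least 2.12-fold over the dish (limma adjusted p = 0.000225) and at least 2.00-fold over subcutaneous cells (adjusted p = 0.000226). Itgb4, the hemidesmosomal partner of Itga6, stayed below background on all arrays, with log2 differences of -1.09 in lung against subcutaneous cells (limma adjusted p = 0.00933) and 0.84 in subcutaneous cells against the dish (adjusted p = 0.0381). The second was lost without any of 6 single arrays (adjusted p up to 0.118). Evpl, a plakin of the cornified envelope, was lower in lung than in subcutaneous cells by a log2 difference of -1.01 (limma adjusted p = 0.0174), lost without subcutaneous replicate 3 (0.0593) or lung replicate 1 (0.0774).

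Of 8 genes for proteins that bind or control keratins, 6 were measured. Tradd, an adaptor of the TNF receptor that binds Krt18, read 7.80, 8.04 and 7.56 in lung cells and was below background on all dish and subcutaneous arrays. It rose at least 1.23-fold over subcutaneous cells (limma adjusted p = 0.00503), the one call of the list there. Limma called none of the 6 in either comparison with the dish, where 2 (lung) and 5 (subcutaneous) had an unadjusted p under 0.05 and array weights called 2 and 0.

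Vimentin filaments are the usual counterpart of keratin filaments in mesenchymal cells. Of the 16 other intermediate filament genes 4 exceeded background on some array, and 2 rose and 2 fell in subcutaneous cells against the dish. In lung against subcutaneous cells 2 rose and 3 fell. In lung against dish limma called none, with 4 at an unadjusted p under 0.05 and 2 called with array weights. Vim, vimentin, read 10.38, 9.57 and 9.98 in the dish, 11.15, 12.05 and 11.57 in subcutaneous cells, and 9.80, 9.96 and 10.42 in lung cells. Only the subcutaneous arrays stood apart. Vim rose by 1.61 in subcutaneous cells against the dish (limma adjusted p = 0.00318, and 0.0533 with RNA integrity as a covariate) and was lower in lung than in subcutaneous cells by a log2 difference of -1.53 (adjusted p = 0.00484). So Vim rose together with Krt8 and Krt18 in the subcutaneous group, and in lung cells, where Krt18 also rose over the dish, the Vim difference was 0.08 (interval -0.57 to 0.73, adjusted p = 0.914).

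Prph, the neuronal filament protein peripherin, read 4.54, 4.37 and 3.97 in the dish, 6.43, 6.52 and 7.96 in subcutaneous cells, and 4.62, 5.28 and 5.25 in lung cells. The subcutaneous arrays were the highest, but only subcutaneous replicate 3 was above background. It rose by 2.67 against the dish (limma adjusted p = 0.000464), and the lung difference from subcutaneous cells was -1.92 (adjusted p = 0.00472). Nes, nestin, a filament protein of progenitor cells, read 9.38, 9.14 and 9.26 in the dish and 7.25, 8.55 and 7.64 in subcutaneous cells. In lung cells Nes read 11.31, 11.73 and 8.97, which was 2.85 above subcutaneous cells (limma adjusted p = 0.00484). The lung difference from the dish was 1.41 (adjusted p = 0.158), with lung replicate 3 below all dish arrays. Lmna, which encodes the nuclear lamins A and C, read 15.90 to 16.24 in subcutaneous cells and 17.25 to 17.35 in the dish, a log2 difference of -1.21 (adjusted p = 0.00534). It was 1.21 higher in lung than in subcutaneous cells (adjusted p = 0.00572). The calls of Nefh, a neurofilament chain, and Bfsp2, a lens filament protein, were of genes below background on all arrays. Nefh differed by -0.92 in subcutaneous cells against the dish (adjusted p = 0.0365, above 0.05 in 7 of 16 alternatives, up to 0.154), and Bfsp2 by -0.98 in lung against subcutaneous cells (adjusted p = 0.0233, above 0.05 without any of 3 single arrays, up to 0.116).

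**Figure D4:**
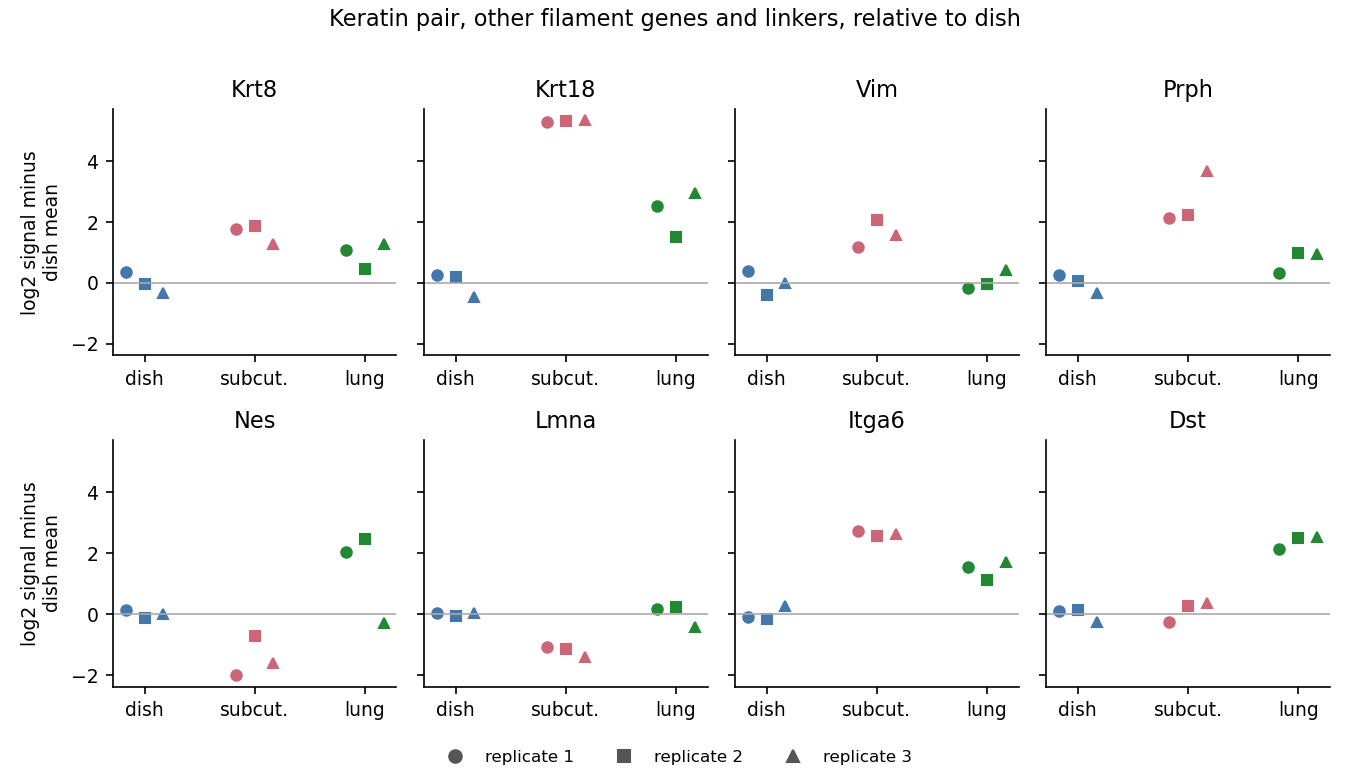
Log2 signal minus the dish mean of the same gene (vertical axis) on each of the 9 arrays for Krt8, Krt18, other filament genes (Vim, Prph, Nes, Lmna) and filament linkers (Itga6, Dst); markers are single arrays. Krt8, Krt18 and Itga6 run dish, lung, subcutaneous from low to high, Vim and Prph are highest in subcutaneous cells, and Dst is highest in lung cells.

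Transcription and splicing factors of epithelial cells were mostly at background. Of 22 such genes 20 were measured, and 2 exceeded background, Klf5 and Tfap2a. Klf5, a factor of proliferating epithelium, read 10.01 to 10.95 over the 9 arrays and was not called in any comparison. Tfap2a, a factor of ectoderm and skin, read 9.05, 8.79 and 8.85 in the dish and 7.68, 8.53 and 7.78 in subcutaneous cells. In lung cells it read 9.92, 10.54 and 8.78, which was 1.75 above subcutaneous cells (limma adjusted p = 0.00879). The lung difference from the dish was 0.85 (adjusted p = 0.218), with lung replicate 3 no higher than the dish arrays. Grhl3, at background on all arrays, differed by -1.07 in the same comparison (adjusted p = 0.0328), above 0.05 in 7 of 16 alternatives (up to 0.118). Limma called none of the 20 in lung against dish or in subcutaneous against dish, with 2 and 3 at an unadjusted p under 0.05, and array weights called 1 and 0.

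Epithelial junction and surface genes were at background as well. Of 18 genes 17 were measured, and Muc1, a mucin of the cell surface, was the one above background, on lung replicate 3. It read 7.16, 5.72 and 8.33 in lung cells and 4.46 to 5.26 elsewhere. It rose by 2.11 over subcutaneous cells (limma adjusted p = 0.0121) and by 2.36 over the dish (adjusted p = 0.0125, lost without dish replicate 3 at 0.0577 and without lung replicate 1 at 0.0506). Epcam, an adhesion protein of most simple epithelia, read 3.86 to 4.70 on the 9 arrays and Cdh1, E-cadherin, 4.27 to 6.02, all below background. Cdh1 differed by 1.12 in lung against subcutaneous cells (adjusted p = 0.0173, lost without any of 3 single arrays at up to 0.0652) and by -0.90 in subcutaneous cells against the dish (adjusted p = 0.04996, lost in 11 of 16 alternatives, up to 0.161). St14, a surface protease, differed by -1.02 in lung against subcutaneous cells at background (adjusted p = 0.0418, lost in 9 of 16 alternatives, up to 0.129).

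In the injured mouse lung, high Krt8 marks a transitional state of alveolar epithelium. Of 10 other genes of that state 9 were measured and 7 exceeded background on some array. In subcutaneous cells against the dish 4 rose and none fell, in lung against dish 2 rose and 1 fell, and in lung against subcutaneous cells 1 rose and 3 fell. The list medians were 1.04, 0.18 and -0.43. Nupr1, a stress-induced regulator, read 12.62 to 13.04 in the dish, 14.52 to 14.71 in subcutaneous cells and 12.65 to 13.42 in lung cells, rising by 1.78 in subcutaneous cells against the dish (limma adjusted p = 0.000522). Its lung difference from subcutaneous cells was -1.60 (adjusted p = 0.00142). Clu, clusterin, a secreted chaperone, rose by 1.41 in subcutaneous cells over the dish (adjusted p = 0.00773, and 0.109 with RNA integrity as a covariate) and was lower in lung than in subcutaneous cells by a log2 difference of -1.29 (adjusted p = 0.0129). Lgals3, the lectin galectin-3, differed by -2.58 in lung against subcutaneous cells (adjusted p = 0.000285) and by -1.54 in lung against dish (adjusted p = 0.00989, 0.0507 without lung replicate 1). Its rise of 1.04 in subcutaneous cells over the dish (limma adjusted p = 0.0401) was above 0.05 in 7 of 17 alternatives, up to 0.240 with RNA integrity as a covariate.

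Hbegf, a growth factor of the EGF family, rose by 1.17 in subcutaneous cells over the dish (adjusted p = 0.0237, above 0.05 without dish replicate 3 at 0.104, without subcutaneous replicate 2 at 0.0966 and with RNA integrity as a covariate at 0.199). Plaur and Cdkn1a instead had their highest mean in lung cells. Plaur, the urokinase receptor, rose there by 2.14 over the dish (limma adjusted p = 0.00313) and by 1.46 over subcutaneous cells (adjusted p = 0.0123, lost without subcutaneous replicate 2 at 0.0507 or lung replicate 1 at 0.0674). Cdkn1a, the cell cycle inhibitor p21, rose by 2.18 in lung over dish (adjusted p = 0.00387).

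The genes whose 9 values ran most nearly parallel to the pair were sought among 6810 genes above background in at least 1 group, as a description over 9 arrays in 3 groups. Slc14a1, a urea transporter, was closest to Krt18 with a Pearson r of 0.997 and group means of 8.40 in the dish, 14.33 in subcutaneous cells and 10.95 in lung cells. Ginm1 followed with an r of 0.995, and Sema7a, a membrane-anchored semaphorin, with 0.992. Closest to Krt8 were Cavin2, a coat protein of caveolae, with an r of 0.981 and means of 5.92, 9.27 and 7.45 in the same order, Sh3bgrl2 (0.978) and Rp2 (0.972). The means of all 6 run dish, lung, subcutaneous from low to high like the pair, which follows from how these genes were picked.

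Markers of some other cells also differed between the groups, not all in the order of Krt8 and Krt18. Of 6 measured fibroblast genes, 3 rose in subcutaneous cells against the dish, 4 fell in lung against subcutaneous cells and 1 rose in lung against dish. Their summed level on the log2 scale was 8.10 to 8.45 in the dish, 16.47 to 17.25 in subcutaneous cells and 10.73 to 13.97 in lung cells. Dcn, a matrix proteoglycan of fibroblasts, read 6.85 to 7.32, 16.37 to 17.09, and 13.94, 12.15 and 10.53 in lung cells. All 6 had their highest mean in subcutaneous cells. The means of Dcn and Lum had the group order of Krt18, while Dpt averaged 5.73 in the dish and 5.77 in lung cells. The other genes of the list were below background on all arrays. Of these, Col1a1 had that order of means with overlapping arrays, and Mfap5 and Pi16 were lowest in lung cells. Of 10 alveolar type II genes, 5 rose in lung cells over the dish, 6 rose over subcutaneous cells, and 1, Abca3, rose in subcutaneous cells over the dish. The first count fell to 4 without any 1 of 7 arrays and the second to 5 without any 1 of 8. Their summed level was 14.81 to 16.57 in lung cells against 13.01 to 13.66 elsewhere. Outside the lung that sum was mostly Etv5, which read 12.89 to 13.63 there. Sftpc, the surfactant protein that defines these cells, read 15.59, 13.45 and 16.37 in lung cells and 4.95 to 5.83 elsewhere. Abca3 averaged 7.16 in the dish, 8.44 in subcutaneous cells and 7.91 in lung cells. Its means had the group order of Krt18, with overlapping lung and subcutaneous arrays. The Abca3 rise in subcutaneous cells over the dish was 1.28 (limma adjusted p = 0.0155, above 0.05 in 3 of 17 alternatives, up to 0.0685). Among the 3 lung arrays Krt8, Krt18 and Sftpc were each lowest on replicate 2 and highest on replicate 3. Dcn was instead lowest on replicate 3 and highest on replicate 1. Genes of the same lists did not all follow these orders. Etv5 (12.52, 14.03 and 12.78) and Lum (7.33, 7.51 and 6.38) were highest on lung replicate 2. Dpt, below background in lung cells, was highest on replicate 3. Such orders of 3 arrays were seen after the fact and were not tested.

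Of 7 measured alveolar type I genes, 3 rose in lung against dish, 2 in lung against subcutaneous cells and 1 in subcutaneous cells against the dish. The first count was lower without any 1 of 8 arrays, and fell to 1 without dish replicate 1, dish replicate 2 or lung replicate 1. With 1 array left out the second fell to 1 (lung replicate 2) and the third to 0 (dish replicate 1, dish replicate 2 or subcutaneous replicate 3). Their summed levels were 9.70 to 10.28 in lung cells and 7.91 to 9.37 elsewhere. Of 7 airway genes 2 rose in lung cells against either group. That count ran from 0 (without any 1 dish array) to 3 against the dish and from 0 (without subcutaneous replicate 2) to 4 (without lung replicate 1) against subcutaneous cells. It was lower without any 1 of 7 arrays against the dish and without any 1 of 3 against subcutaneous cells. The summed level was 8.60, 10.35 and 14.90 on the lung arrays and 7.36 to 7.81 elsewhere. Of 6 mesothelial genes 2 rose in subcutaneous cells against the dish and 1 fell in lung against subcutaneous cells, counts that dropped to 1 without any 1 of 4 arrays and to 0 without any 1 of 7 arrays, with summed levels of 7.75 to 8.08 in the dish, 8.79 to 9.61 in subcutaneous cells and 8.11 to 8.54 in lung cells. Of 11 cornified envelope genes Sbsn alone exceeded background, rising by 2.07 in lung over subcutaneous cells (limma adjusted p = 0.000933) and by 1.52 over the dish (adjusted p = 0.0105). Lor, at background, differed by -1.01 in lung against subcutaneous cells (adjusted p = 0.0123, 0.0716 without lung replicate 1). The defining markers of leukocytes (4 measured, Ptprc among them) and endothelium (5 measured, Pecam1 among them) were below background on all 9 arrays. Limma called none of these 9 genes in any comparison, with 3 at an unadjusted p under 0.05 over the comparisons and none called with array weights. The part of other cells in the keratin values was not tested, and in bulk RNA fewer cells of a type and less RNA per cell cannot be told apart.

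RNA integrity numbers averaged 8.5 in the dish, 8.17 in lung cells and 7.97 in subcutaneous cells, the reverse of the order of Krt8 and Krt18. The mean of the hybridisation controls averaged 12.01 ± 0.15 in the dish, 12.83 ± 0.11 in subcutaneous cells and 11.35 ± 0.35 in lung cells (n = 3 each), highest in subcutaneous cells like both keratins and lowest in lung cells. The part of either in the keratin values was not tested beyond the covariate. With RNA integrity as a covariate Krt18 remained called in all 3 comparisons and Krt8 in subcutaneous cells against the dish.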

How the data were processed

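RNA from 9 samples was read on a 1-colour whole-transcript array. RNA was isolated with a column kit and hybridised as biotin-labelled fragments of sense-strand cDNA, per the labels. The authors deposited a table of log2 values, one column per array, from 1.56 to 19.71. How it was background-corrected and normalized, with which software and build, is not given in the sources used here. The number of arrays limits the precision.

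Of 28846 features, 19572 carried 1 gene symbol in the platform annotation, 2634 gene features carried none and 0 carried several, and all symbols were current by gene number. For 55 genes with several features the highest mean was kept, leaving 19505 genes. limma 3.58.1 in R 4.3.3 was fitted once to all 9 arrays with 3 group means (6 residual and 7.08 prior degrees of freedom), two-sided, with Benjamini-Hochberg adjustment over all genes, calls being made where the adjusted p was below 0.05. The test was checked on simulated data. Pair differences were tested by exact permutation over samples. A fold is called "at least" where 1 group was below background on all its arrays and its floor was the background limit.

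The members and gene lists were chosen with earlier results of these data known. The genes named are all 8 members, up to 3 called genes per list, direction and comparison with the largest change and no overlap between groups, and the 3 genes most like each member above background. Some such genes of the marker lists for other cells are left out for length, and Klf5, Epcam, Ptprc, Pecam1, Pi16, Mfap5, Col1a1 and the genes beside the Krt8 and Krt18 loci were named after their values were seen. Same-numbered samples did not deviate together (r from -0.08 to 0.07 for 9 pairs), so the numbers were not taken to pair them. Alternatives covered the scaling, a filter on dim genes, an intensity trend, array weights, RNA integrity, a replicate block, the features of a gene, the groups fitted and each array left out.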

Additional observations from a re-analysis of the deposited data

How the results depend on the processing

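The calls of Krt18 in all 3 comparisons and of Krt8 in subcutaneous cells against the dish held under all 17 alternatives. Leaving out single arrays moved Krt18 from -3.29 to -2.57 in lung against subcutaneous, 2.02 to 2.73 in lung against dish and 5.08 to 5.44 in subcutaneous against dish, and Krt8 from 1.47 to 1.81 in the last (adjusted p up to 0.0134). Of 390 alternative values for members, 354 kept direction and side of the threshold, 10 lost the call, 11 gained it and 15 changed sign. The calls over all genes in lung against dish (1322) were 3039 with array weights, 856 with RNA integrity as a covariate and 514 to 1442 with 1 array left out (514 without dish replicate 2, 591 without lung replicate 1, 667 without dish replicate 3, 765 without lung replicate 2). In lung against subcutaneous (2927) they were 1476 to 2928 with 1 array left out, the lowest without lung replicate 1 and 1938 without lung replicate 2. In subcutaneous against dish (2513) they were 1280 with RNA integrity and 1639 (without dish replicate 2) to 2738 with 1 array left out. Member calls in lung against dish (2) were 4 with array weights, 1 with RNA integrity, 1 with only those groups fitted and 1 to 2 with 1 array left out (2 without lung replicate 3). In lung against subcutaneous (1) they were 3 with array weights, 2 with the replicate block, 2 with only those groups fitted and 1 to 3 with 1 array left out (3 without lung replicate 3, 2 without dish replicate 3). The block called Krt80 there (1.51, limma adjusted p = 0.0498), it left 2852 calls over all genes there, 1313 in lung against dish and 2475 in subcutaneous against dish, and it changed no other member call. Other keratins called (0) were 1, 3 and 1 in lung against dish with an intensity trend, array weights and only those groups fitted, 1 in lung against subcutaneous with array weights and 1 with only those groups fitted, and 0 to 1 in all 3 comparisons with 1 array left out. Signs changed for differences at background. Krt14 in lung against dish was 0.0682 with quantile normalization, 0.0445 with array weights and -0.256 to 0.0498 with 1 array left out, and Krt5 there was 0.106, 0.0781 and -0.203 to 0.0488. With 1 array left out Krt5 ranged from -0.0992 to 0.41 in lung against subcutaneous and -0.445 to 0.0638 in subcutaneous against dish, Krt7 from -0.44 to 0.17 in subcutaneous against dish, Krt19 from -0.244 to 0.0271 in lung against subcutaneous, Krt20 from -0.42 to 0.11 in lung against dish, and Krt5 minus Krt14 from -0.0451 to 0.119 in lung against dish. The cause was not tested. The filter on dim genes removed 6 members and all other keratins, so it gave no value for them. Leaving out arrays for the gene list counts was chosen after seeing the data. It moved the fibroblast rise in subcutaneous cells against the dish between 3 and 4 genes and in lung against dish between 1 and 2, and the transitional rise in subcutaneous cells against the dish between 2 and 4. For 6 members and 41 other keratins, below background on all arrays, a missed threshold says little about the RNA.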

Other observations

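On mouse chromosome 15 the RefSeq table places Krt8 and Krt18 side by side on opposite strands, with 2 uncharacterised genes between them and no protein-coding one. Beyond Krt8 lie the keratins Krt4, Krt79 and Krt78, which were below background on all 9 arrays and not called in any comparison. Beyond Krt18 lie Eif4b, Tns2 and Spryd3. Eif4b, a translation initiation factor, averaged 10.69 in the dish, 11.69 in subcutaneous cells and 10.27 in lung cells. It differed by -1.42 in lung against subcutaneous cells (limma adjusted p = 0.00414) and by 1.00 in subcutaneous cells against the dish (adjusted p = 0.0277), a call lost without dish replicate 2 (0.107), dish replicate 3 (0.071), subcutaneous replicate 2 (0.0835) or subcutaneous replicate 3 (0.0782) and with RNA integrity as a covariate (0.248). Spryd3 went the other way, with means of 8.60, 6.40 and 8.80. It differed by -2.20 in subcutaneous cells against the dish (adjusted p = 0.000327) and by 2.40 in lung against subcutaneous cells (adjusted p = 0.000309). Tns2 was not called in any comparison.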
